A study of Homo sapiens with 24 samples.

Results

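The comparison described here set the highest decitabine dose of the series against the lowest, 25 nM against 5 nM, within each of 3 human T-cell lines. Its 6 libraries were chosen by their labels, 3 at 25 nM and 3 at 5 nM, out of 24 libraries in the series. The lines were HH, from a cutaneous T-cell lymphoma, PF382, from a T-cell acute lymphoblastic leukemia, and TLOm1, from an adult T-cell leukemia. Growing cells had received the drug anew every 24 h over 96 h, and gene expression was measured by stranded RNA-seq as read counts per gene. There was 1 library per line and dose, so the 3 lines were the replicates and each line was its own pair. No untreated library entered, and both sides of the comparison had received the drug: it asks what a higher dose changed beyond a lower one. The 3 libraries at 12.5 nM served to show whether a gene was intermediate at the intermediate dose. They also entered the slopes over the 3 doses, the difference of these slopes between lines and an alternative run, but not the main test. All 3 lines are transformed cultures, and the labels do not say whether the doses of a line came from separate experiments, so p-values measured only the spread between these libraries.

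Decitabine is a deoxycytidine analog that is phosphorylated in the cell and built into replicating DNA, where it traps DNA methyltransferases. Daughter strands then lose cytosine methylation over successive divisions. Genes of the testis and germline whose promoters are methylated in somatic cells are the best known group to be expressed after such treatment, the cancer-testis antigens among them, many of which lie on the X chromosome. DNA methylation itself was not measured here.

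The 25 nM libraries held 20116706 counts in HH, 13892514 in PF382 and 23614169 in TLOm1, against 19187586, 17424654 and 28064210 at 5 nM. Levels are given as CPM, the counts scaled to a common library total, and 3 counts, the floor below which a level is not told from 0, stood for 0.107 to 0.216 CPM in these 6 libraries. Intervals and floors cover counting error only. Doses of one line correlated across genes with r = 0.983 to 0.997 and different lines with r = 0.757 to 0.851, on log2(CPM + 1) over the 14025 tested genes and all 9 libraries. All 20 T-cell markers examined exceeded 1 CPM in some library. The markers of erythroid cells summed to at most 0.597 CPM in any of the 6 libraries, with 3 of 8 at 0 throughout, and those of myeloid cells to at most 4.1 CPM at 25 nM and 2.24 CPM at 5 nM. The TLOm1 library at 5 nM stood apart by some genes of connective tissue cells. The collagens COL1A1, COL1A2 and COL3A1 with DCN and LUM summed to 1.4 CPM in TLOm1 at 25 nM, against 26.5 CPM at 5 nM, with 1.51 CPM at 12.5 nM. In HH the same sum was 0.845 CPM at 25 nM, against 0.417 CPM at 5 nM, and in PF382 it was 9.14 CPM against 7.4 CPM. These genes belong to a list of 9 fibroblast and endothelial markers. In TLOm1 the whole list summed to 72.9 CPM at 25 nM, against 74.3 CPM at 5 nM. Its member PECAM1 went the other way there, at 71.3 CPM against 47.5 CPM. So did COL5A1, a collagen outside the list, at 7.37 CPM against 1.28 CPM. In these bulk libraries fewer cells expressing a gene and less RNA per cell cannot be told apart.

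Genes that were nearly silent at 5 nM rose at 25 nM, and 13 of the 48 higher genes belong to a list of cancer-testis antigens or of piRNA and meiosis genes. Of 14025 genes tested, 48 were higher at 25 nM (0.342%) and 1 was lower (0.00713%) at an adjusted p under 0.05 by edgeR's quasi-likelihood test with cell line as a block. At an unadjusted p under 0.05, 1004 genes were higher (7.16%) and 696 lower (4.96%). The 48 genes averaged a median of 9.05 CPM at 25 nM, against 0.539 CPM at 5 nM, and 31 of them (64.6%) were under 1 CPM on average at 5 nM, against 7.02% of all genes tested. Each of the 48 was higher at 25 nM in all 3 lines, while 38% of all genes tested had the same direction, up or down, in all 3. In 24 every 25 nM library exceeded every 5 nM library, and 1.85% of all genes tested had no overlap in either direction. The genes were selected for that difference, so neither count is support for it. The filter on low counts kept a gene with about 10 counts (0.509 CPM) in 3 of the 6 libraries, and 37 of the 48 would not have passed it on their 5 nM libraries alone. In 15 of these no 5 nM library reached that level, so that they could only be found higher.

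The 12.5 nM libraries, which the test did not use, were intermediate in all 3 lines for 31 of the 48 genes (64.6%), against 9.24% of all genes tested. They were intermediate in 2 lines for 13 genes, in 1 line for 3 and in none for 1. Being intermediate was judged against the same 5 and 25 nM values that selected the 48 genes. A wide gap between these values makes it likely beforehand, so the difference from all genes tested is not support for the calls. In a model of the slope over 5, 12.5 and 25 nM, 632 of 15677 genes rose with the dose (4.03%) and 235 fell (1.5%), among them 46 of the 48 as rising. The slope reuses the 6 libraries at 5 and 25 nM, so here and wherever slopes are given below it is not independent of the main test. These slope counts depended on the lines, with 421 rising and 57 falling without HH and 333 and 90 without PF382.

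The 48 calls did not rest equally on the 3 lines. At 25 nM, 29 of the 48 genes reached 1 CPM in all 3 lines, 13 in 2 lines and 6 in 1 line. The highest level at 25 nM was in PF382 for 33 genes, in TLOm1 for 8 and in HH for 7. The median difference of log2(CPM + 1) between 25 nM and 5 nM was 1.27 in HH, 1.78 in PF382 and 1.57 in TLOm1. The count of higher genes was 77 without HH, 61 without PF382 and 56 without TLOm1, whose 5 nM library carried the connective tissue genes. Of the 48 genes, 34 of 47 tested were called without HH, 35 of 44 without PF382 and 23 of 44 without TLOm1, and every one tested kept its direction.

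**Figure D1:**
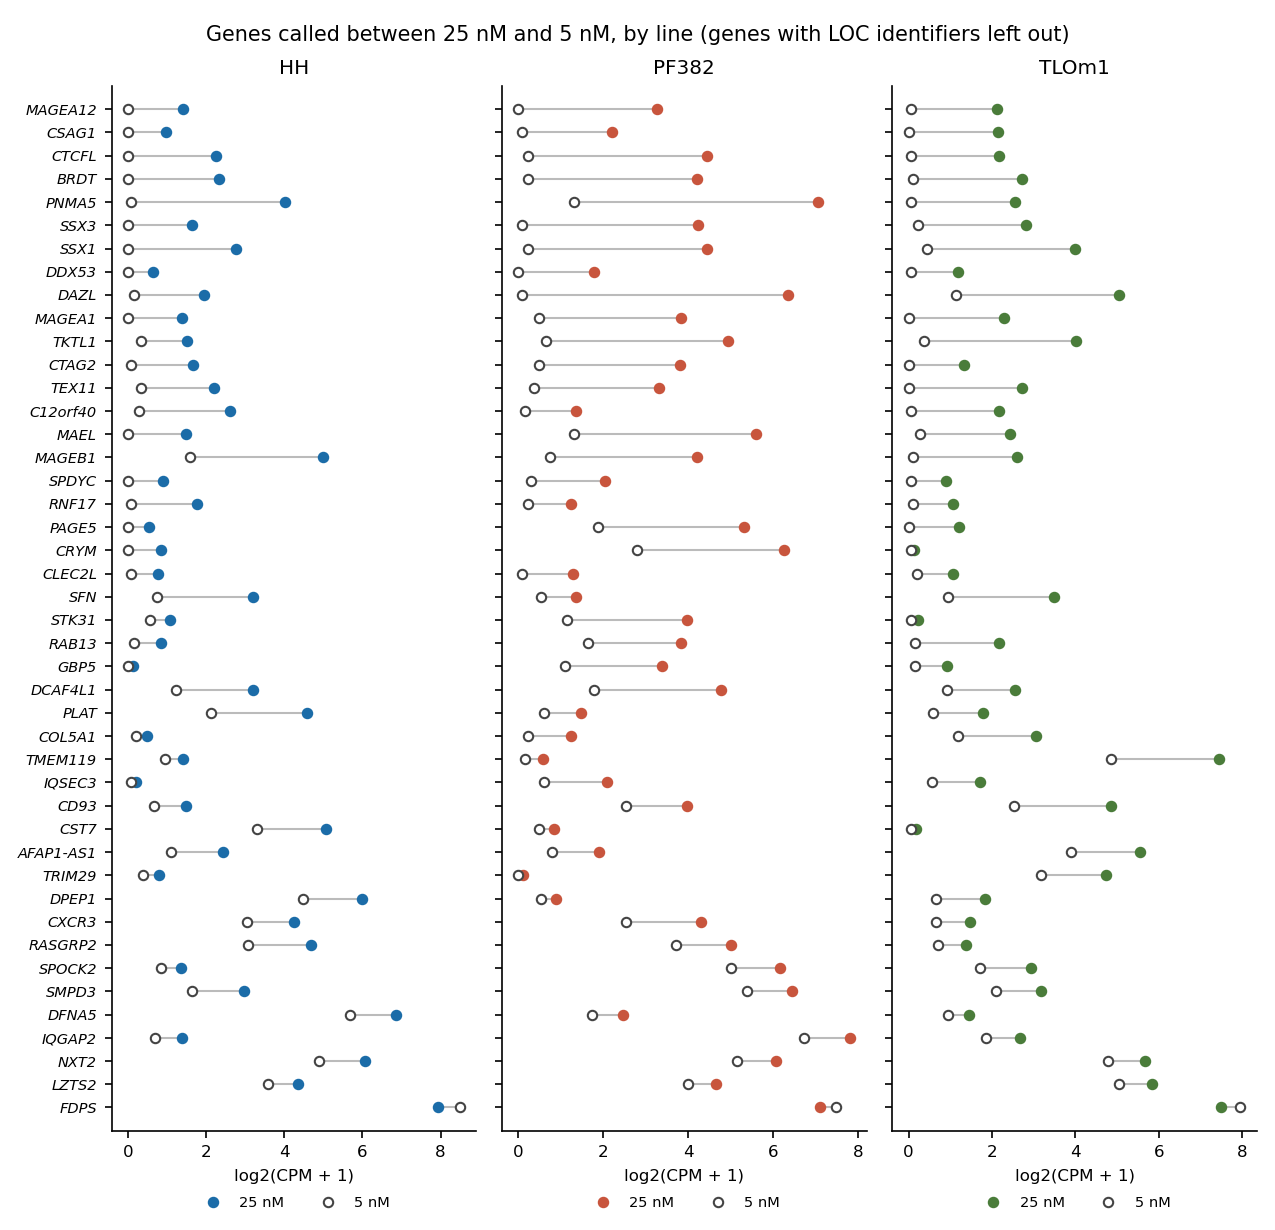
Level of 43 of the 48 higher genes (5 with LOC identifiers are not drawn) and of FDPS, in log2(CPM + 1), in each line. Filled points are the 25 nM libraries and open points the 5 nM libraries, with 1 library per point. The filled point lies to the right for every gene but FDPS, and PF382 holds the highest 25 nM level for 33 of the 48.

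Promoter windows of the called genes differ widely in CpG content, the dinucleotide at which methylation occurs, and 4 are shown with each CG in capitals. They are from RefSeq on GRCh38.p14, run 5′ to 3′ on the gene's strand from 250 bases before a start to 50 after it, and show the first start listed. MAEL (chr1:166975332-166975631, plus strand) has 60 CG in its 300 bases, DAZL (chr3:16605374-16605673, minus strand) 33 and FDPS (chr1:155308616-155308915, plus strand), the gene called lower, 27. MAGEB1 (chrX:30243481-30243780, plus strand) has 1.
MAEL: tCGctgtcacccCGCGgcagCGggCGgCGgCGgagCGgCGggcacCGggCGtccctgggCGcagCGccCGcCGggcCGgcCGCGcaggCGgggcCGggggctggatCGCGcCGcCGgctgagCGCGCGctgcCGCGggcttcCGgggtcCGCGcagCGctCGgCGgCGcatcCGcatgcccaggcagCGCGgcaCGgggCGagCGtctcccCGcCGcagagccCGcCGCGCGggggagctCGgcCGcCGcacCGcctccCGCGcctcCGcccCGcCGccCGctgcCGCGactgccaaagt
DAZL: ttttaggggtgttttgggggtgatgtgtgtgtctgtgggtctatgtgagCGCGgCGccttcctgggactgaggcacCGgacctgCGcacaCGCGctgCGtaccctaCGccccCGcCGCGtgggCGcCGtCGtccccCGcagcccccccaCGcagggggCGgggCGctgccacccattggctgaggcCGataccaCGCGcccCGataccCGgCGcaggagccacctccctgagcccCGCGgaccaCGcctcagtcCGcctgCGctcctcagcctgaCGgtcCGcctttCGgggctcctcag
MAGEB1: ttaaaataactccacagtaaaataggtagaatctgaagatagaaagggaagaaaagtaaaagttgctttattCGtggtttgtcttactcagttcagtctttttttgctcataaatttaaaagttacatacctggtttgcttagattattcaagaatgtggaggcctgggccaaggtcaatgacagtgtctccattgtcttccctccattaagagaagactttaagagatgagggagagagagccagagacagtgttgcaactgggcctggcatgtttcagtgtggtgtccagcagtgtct
FDPS: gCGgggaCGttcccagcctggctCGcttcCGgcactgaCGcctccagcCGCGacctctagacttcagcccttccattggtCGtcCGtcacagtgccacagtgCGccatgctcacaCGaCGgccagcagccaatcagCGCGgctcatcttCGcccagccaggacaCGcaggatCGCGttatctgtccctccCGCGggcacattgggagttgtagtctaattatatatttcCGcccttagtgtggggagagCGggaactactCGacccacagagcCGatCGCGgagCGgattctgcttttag
A window was found for 30 of the 48 higher genes (62.5%) and for 72.7% of all genes tested, and the 30 held 1 to 60 CG. With under 80% matched, the comparison of CpG counts and of motifs between called and tested genes is void and no difference is given.

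Germline regulators were among the genes with the smallest p-values. CTCFL, the testis paralog of the chromatin insulator protein CTCF, was read at 3.78 CPM in HH, 20.8 CPM in PF382 and 3.52 CPM in TLOm1 at 25 nM, against 0, 0.172 and 0.0356 CPM at 5 nM. All 25 nM libraries were far above all 5 nM libraries, with 448 reads counted in all at 25 nM, against 4 at 5 nM. Its log2 fold change was 6.88 ± 0.35 (SE, adjusted p = 6.88e-05, edgeR). BRDT, the bromodomain protein of male germ cells, was at 3.98, 17.5 and 5.59 CPM in HH, PF382 and TLOm1 at 25 nM, against 0, 0.172 and 0.0713 CPM at 5 nM, a log2 fold change of 6.60 ± 0.36 (adjusted p = 0.000195). Its pooled level was 102-fold higher, with a 95% counting interval of 43.4 to 316.

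DAZL, an RNA-binding protein needed for germ cell development, reached 2.83 CPM in HH, 80.8 CPM in PF382 and 32.2 CPM in TLOm1 at 25 nM, against 0.104, 0.0574 and 1.21 CPM at 5 nM. The groups did not overlap, although HH had no read at 12.5 nM, where PF382 was at 10.4 CPM and TLOm1 at 6.24 CPM. Its log2 fold change was 5.91 ± 0.51 (adjusted p = 0.00615). MAEL, a piRNA pathway protein that helps silence transposons in the germline, was at 1.79, 47.4 and 4.36 CPM in HH, PF382 and TLOm1 at 25 nM, against 0, 1.49 and 0.214 CPM at 5 nM. The 3 libraries at 25 nM again exceeded all at 5 nM, with a log2 fold change of 4.87 ± 0.28 (adjusted p = 0.000916).

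Further meiosis and spermatogenesis genes were among the calls. TEX11, an X-linked protein of meiotic crossover sites, was at 3.58, 9.0 and 5.59 CPM in HH, PF382 and TLOm1 at 25 nM, against 0.261, 0.287 and 0 CPM at 5 nM (log2 fold change 5.15 ± 0.49, adjusted p = 0.0146). C12orf40, now named REDIC1 and also a meiotic crossover factor, was at 5.12, 1.58 and 3.47 CPM at 25 nM, against 0.209, 0.115 and 0.0356 CPM at 5 nM. HH held its highest 25 nM level, unlike most of the called genes. STK31 and RNF17, Tudor domain proteins of the testis, had log2 fold changes of 3.04 ± 0.40 and 3.95 ± 0.50. STK31 was carried by PF382, with 14.8 CPM at 25 nM against 1.21 CPM at 5 nM, while in TLOm1 it was at 0.169 CPM against 0.0356 CPM, both near the floor. DDX53, an RNA helicase of the cancer-testis group, was counted 75 times at 25 nM and once at 5 nM, a ratio of 84.2 with a counting interval of 14.7 to 3369.

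**Figure D2:**
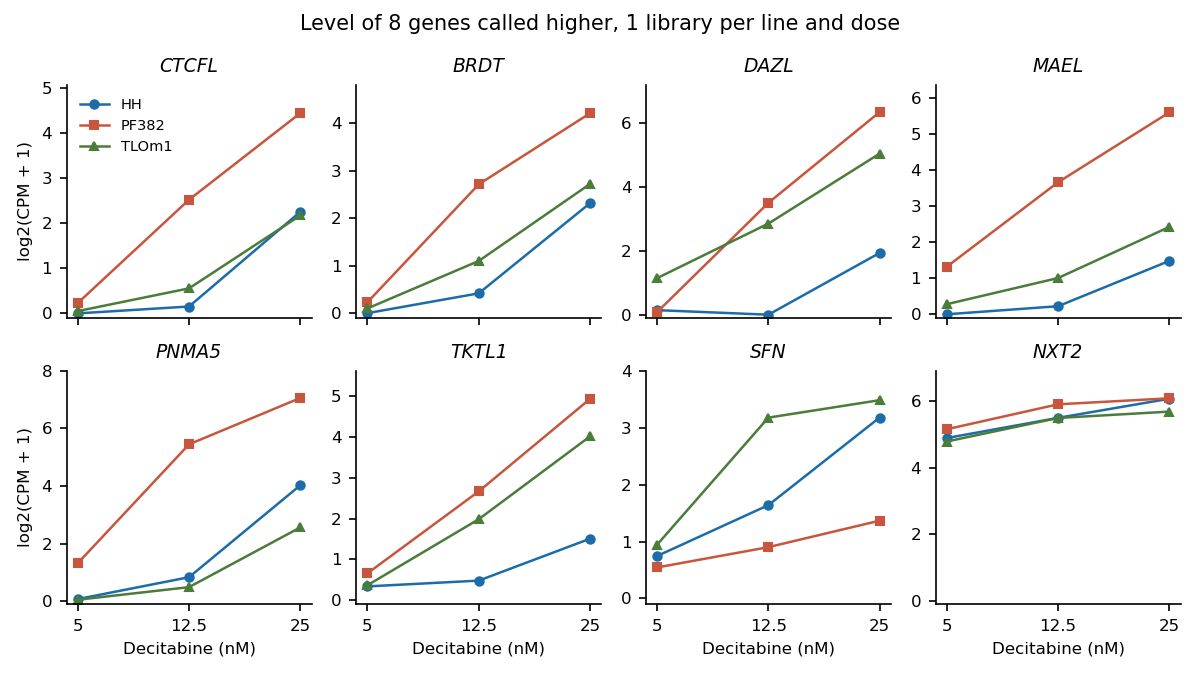
Level of 8 of the higher genes at 5, 12.5 and 25 nM, in log2(CPM + 1), with a line per cell line and 1 library per point. All points at 25 nM lie above the 5 nM point of the same line, and DAZL in HH at 12.5 nM is the one intermediate value that is below its own 5 nM value.

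The list of cancer-testis antigens, tumor antigens that among normal tissues are found mainly in the testis, contributed 8 of the 48 genes. DDX53 and SSX3 were called too but were not in that list. Of 41 genes of that list in the files, 11 were at 1 CPM or more in HH, 24 in PF382 and 21 in TLOm1 at 25 nM, against 2 in each line at 5 nM. Their summed level was 77.6, 369 and 158 CPM in HH, PF382 and TLOm1 at 25 nM, against 24.4, 15.3 and 69.7 CPM at 5 nM. Both the number of genes read and the sum were higher at 25 nM in every line. Only 14 of the 41 passed the filter, and 12 of these were higher at an unadjusted p under 0.05, against 7.16% of all genes tested. Of the 14, MAGEA12, CSAG1, MAGEA3 and MAGEA6 had 1 read or none at 5 nM. CTAG2, SSX1, MAGEA1 and PAGE2B stayed under the filter level of 0.509 CPM in every 5 nM library. All of these could only be found higher, so the share of 12 in 14 is not support. A list of 45 piRNA pathway and meiosis genes showed 17, 32 and 23 genes at 1 CPM or more at 25 nM, against 9, 13 and 16 at 5 nM, with 22 tested, 5 called higher by edgeR and none lower. DESeq2 called 6 of these genes higher and limma voom 2, and of the cancer-testis antigens 14 and 10, against 8 by edgeR. DESeq2 gave a p-value for 42 and 38 genes of these lists, against 22 and 14 tested by edgeR and limma voom. Of all genes tested, edgeR called 0.342% higher. Over the 3 doses, 19 of 21 cancer-testis genes and 12 of 28 piRNA and meiosis genes that could be tested rose, against 4.03% of all genes tested. In the second list, BRDT, TEX11 and SYCP2 also stayed under 0.509 CPM in every 5 nM library. Members that passed the filter through the higher doses alone could only rise, so these shares are not support. None of either list fell.

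**Figure D3:**
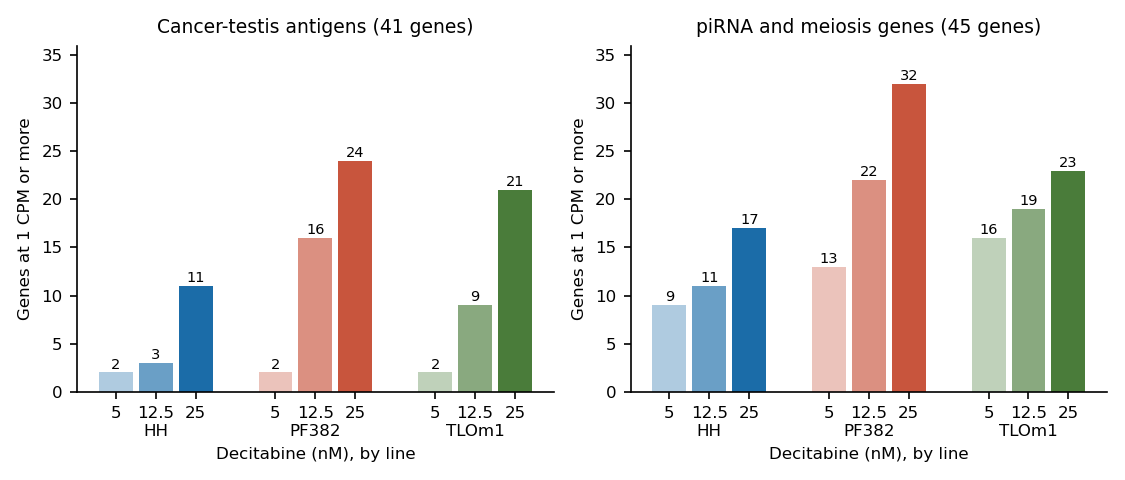
Number of cancer-testis antigens (left) and of piRNA and meiosis genes (right) at 1 CPM or more, by line, at 5, 12.5 and 25 nM. Each bar is 1 library and its number stands above it. Among cancer-testis antigens the count at 25 nM was 11, 24 and 21, against 2 in each line at 5 nM.

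The MAGE, SSX, CTAG, CSAG and PAGE genes are families of near-identical copies, as is DAZL with the DAZ genes, and 9 of the 48 calls lie in such families, so that reads may have been assigned to the wrong copy and the single members are uncertain. SSX1, a transcriptional corepressor of the testis, was at 5.82, 20.7 and 14.8 CPM in HH, PF382 and TLOm1 at 25 nM, against 0, 0.172 and 0.356 CPM at 5 nM (log2 fold change 6.03 ± 0.34, adjusted p = 0.00139). MAGEA1 was at 1.59, 13.3 and 3.85 CPM at 25 nM, against 0, 0.402 and 0 CPM at 5 nM (log2 fold change 5.62 ± 0.45, adjusted p = 0.00234). MAGEB1 was at 31.1, 17.5 and 5.08 CPM at 25 nM, against 1.98, 0.689 and 0.0713 CPM at 5 nM (4.32 ± 0.26, adjusted p = 0.00261). MAGEA12 was counted 233 times at 25 nM and once at 5 nM, a ratio of 262 with a counting interval of 46.5 to 10373, and CSAG1 149 times and once. CTAG2, SSX3 and PAGE5 had log2 fold changes of 5.18, 6.29 and 3.93.

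MAGEA3 and MAGEA6 had 148 and 186 reads at 25 nM and no read in any of the 5 nM libraries, which puts them at least 55.4-fold and at least 69.6-fold higher against a floor of 3 counts over the group. Neither passed the threshold by edgeR (adjusted p = 0.0643 and 0.0506), while both did by DESeq2 (6.57e-05 and 1.45e-05) and by limma voom (0.0174 and 0.0225). PRAME, an antigen of many tumors, was at 0.597, 131 and 14.1 CPM in HH, PF382 and TLOm1 at 25 nM, against 0, 9.18 and 4.56 CPM at 5 nM, and was not called by edgeR (adjusted p = 0.107), DESeq2 (0.143) or limma voom (0.062). MAGEB2 shows how the lines differed, with 6.36 and 5.61 CPM in HH and PF382 at 25 nM against no read at 5 nM, but 62.7 CPM against 63.9 CPM in TLOm1. It was not called by edgeR (adjusted p = 0.675), DESeq2 (0.223) or limma voom (0.839).

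Of the 45 higher genes with a known chromosome, 15 (33.3%) lie on X, against 3.26% of all genes tested. Among the 15, CTAG2, SSX1, SSX3, MAGEA1, MAGEA12, CSAG1, TEX11 and DDX53 stayed under the filter level of 0.509 CPM in every 5 nM library. These could only be found higher, so the share on X is not support for an excess there. Of the 15, 9 are members of the testis lists. The other X-linked genes included PNMA5, of the paraneoplastic Ma antigen family, which had the smallest p-value of all. It was at 15.3, 132 and 4.91 CPM in HH, PF382 and TLOm1 at 25 nM, against 0.0521, 1.49 and 0.0356 CPM at 5 nM (log2 fold change 6.56 ± 0.20, adjusted p = 5.79e-05). TKTL1, a transketolase-like protein that was in the cancer-testis list, was at 1.84, 29.7 and 15.2 CPM at 25 nM, against 0.261, 0.574 and 0.285 CPM at 5 nM. NXT2, a cofactor of nuclear mRNA export, was expressed throughout and rose by about the same amount in each line, with 66.2, 66.7 and 50.4 CPM at 25 nM, against 28.6, 34.6 and 26.6 CPM at 5 nM (log2 fold change 0.99 ± 0.09, adjusted p = 0.0184).

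Outside both testis lists stood 35 of the 48 genes, CTCFL, SSX3, DDX53 and PNMA5 among them, and several known from somatic tissues. SFN, the 14-3-3 sigma protein, whose promoter is methylated in many tumors, was at 8.1, 1.58 and 10.2 CPM in HH, PF382 and TLOm1 at 25 nM, against 0.678, 0.459 and 0.926 CPM at 5 nM (log2 fold change 3.26 ± 0.30, adjusted p = 0.0167). DFNA5, now GSDME, the gasdermin that caspase-3 cleaves to open pores in dying cells, was at 114, 4.54 and 1.74 CPM at 25 nM, against 50.0, 2.35 and 0.926 CPM at 5 nM (1.08 ± 0.12, adjusted p = 0.0353). HH was far above the other lines at either dose, and within each line the 25 nM library was higher. DCAF4L1 was at 8.25, 26.4 and 4.91 CPM at 25 nM, against 1.36, 2.47 and 0.891 CPM at 5 nM, with no overlap between the doses.

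Lymphocyte genes among the calls were CXCR3, GBP5, RASGRP2 and CST7. CXCR3, a chemokine receptor of T cells, was at 17.9, 18.6 and 1.78 CPM in HH, PF382 and TLOm1 at 25 nM, against 7.24, 4.76 and 0.57 CPM at 5 nM (log2 fold change 1.57 ± 0.19, adjusted p = 0.0475). RASGRP2, an exchange factor for the GTPase RAP1, was at 24.9, 31.5 and 1.61 CPM at 25 nM, against 7.35, 12.1 and 0.641 CPM at 5 nM (adjusted p = 0.0284). CST7, a cystatin of cytotoxic cells, was read mainly in HH, at 32.6 CPM against 8.86 CPM, while PF382 and TLOm1 stayed under 1 CPM at both doses (log2 fold change 1.79 ± 0.20, adjusted p = 0.0186). GBP5, an interferon-inducible GTPase, was read mainly in PF382, at 9.5 CPM against 1.15 CPM.

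Several calls were thus of 1 line in the main, and in 10 of the 48 genes 1 line held over 90% of the summed 25 nM level. TMEM119, a membrane protein known as a marker of microglia, was at 172 CPM in TLOm1 at 25 nM, against 28.0 CPM at 5 nM, and under 2 CPM in the other lines. Its TLOm1 level at 12.5 nM, 203 CPM, was already above that at 25 nM. TRIM29, a tripartite motif protein, had the same order, with 25.8 CPM in TLOm1 at 25 nM against 8.09 CPM at 5 nM and 28.1 CPM at 12.5 nM. CRYM, a thyroid hormone binding protein, was at 75.4 CPM in PF382 at 25 nM, against 5.97 CPM at 5 nM, and at 0.0847 CPM in TLOm1 against 0.0356 CPM, under the floor. The remaining named calls were AFAP1-AS1, PLAT, IQGAP2, SPDYC, COL5A1, IQSEC3, RAB13, DPEP1, CD93, CLEC2L, SMPD3, SPOCK2 and LZTS2, with log2 fold changes between 0.75 (LZTS2) and 4.10 (SPDYC). AFAP1-AS1 is antisense to another gene, and the sources used here do not give whether counting used strand.

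The 1 gene called lower belongs to cholesterol synthesis. FDPS, which makes farnesyl diphosphate, was at 245 CPM in HH, 136 CPM in PF382 and 178 CPM in TLOm1 at 25 nM, against 360, 178 and 248 CPM at 5 nM. The groups overlap, but each line was lower at 25 nM and intermediate at 12.5 nM. Its log2 fold change was -0.51 ± 0.06 (adjusted p = 0.0489), close to the threshold. The fold change lay between -0.48 and -0.53 in every alternative run. The call was lost without HH (adjusted p = 0.169), without TLOm1 (0.167), with upper quartile scaling (0.0513), without robust dispersion (0.054), with the legacy fit (0.142) and without the term for cell line (1), out of a range of 5.34e-11 to 1 over the alternatives. The number of genes called lower was 2 without HH and 4 without PF382.

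All 23 tested genes of cholesterol synthesis and uptake had a log2 fold change below 0, 19 of them in all 3 lines, with a median of -0.42 against 0.01 over all genes tested. With limma voom, and without PF382, 1 of the 23 was above 0. Of the 23, 18 were lower at an unadjusted p under 0.05, against 4.96% of all genes tested, and 17 fell over the 3 doses, against 1.5%. The sum of the 24 listed genes was 3988, 1712 and 3512 CPM in HH, PF382 and TLOm1 at 25 nM, against 5810, 2199 and 4145 CPM at 5 nM. MVD, which makes isopentenyl diphosphate, had a log2 fold change of -0.56 ± 0.07 (adjusted p = 0.0506), DHCR7, the enzyme of the last step to cholesterol, -0.75 ± 0.11 (0.0678), and FDFT1, which makes squalene, -0.51 ± 0.08 (0.0834). By edgeR these 3 passed the slope test and not the test of 25 nM against 5 nM. DESeq2 called 8 genes of the list lower, these 3 among them, and limma voom 1. HMGCS1 had the lowest value of the list, -0.79 ± 0.20 (adjusted p = 0.278), with 222 CPM in HH at 25 nM against 569 CPM at 5 nM but 139 CPM against 185 CPM in PF382. CYP51A1 differed in direction between lines, at 28.3 CPM in PF382 at 25 nM against 19.9 CPM at 5 nM and at 93.3 CPM in HH against 169 CPM. Of the neighbouring fatty acid genes, SCD was at 1150, 178 and 579 CPM at 25 nM, against 1866, 463 and 755 CPM at 5 nM, and was not called (adjusted p = 0.266).

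**Figure D4:**
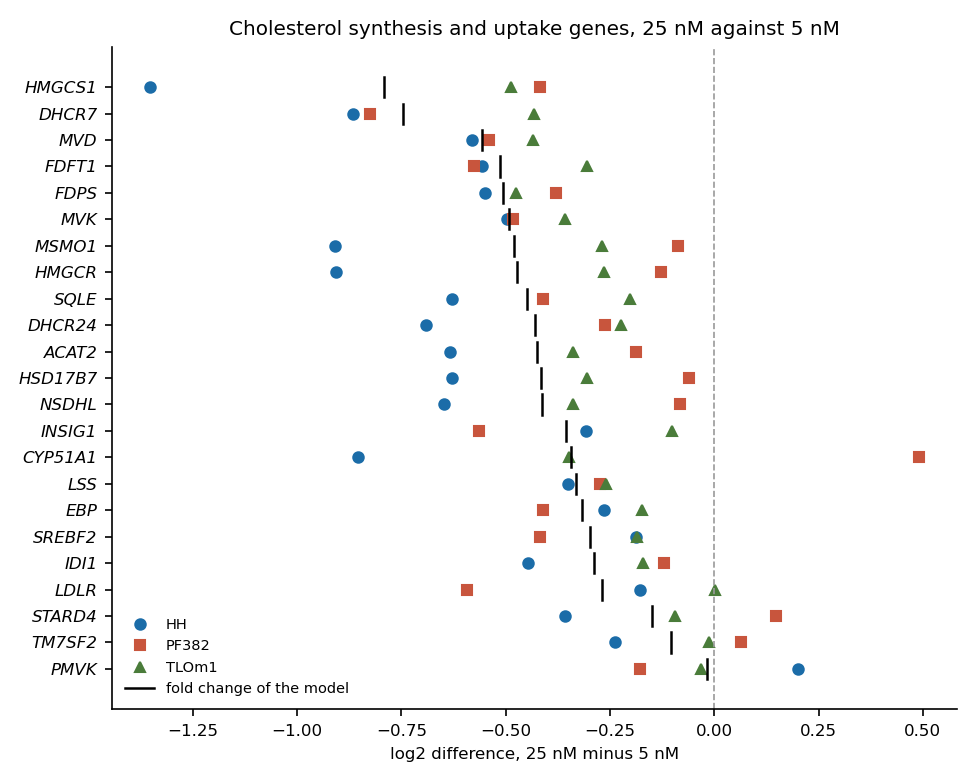
Difference of log2(CPM + 1) between 25 nM and 5 nM for the 23 tested genes of cholesterol synthesis and uptake, 1 symbol per line, with the fold change of the model as a black bar. All 23 bars lie below 0, and FDPS is the 1 gene that passed the threshold.

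Other lists of biosynthetic genes had medians below 0 without a call by edgeR or limma voom, while DESeq2 called 5 tRNA synthetases, 3 glycolysis genes, 1 MYC and ribosome biogenesis gene and 1 stress response gene lower. As a background for the counts that follow, edgeR gave 4.96% of all genes tested as lower at an unadjusted p under 0.05 and 1.5% as falling over the 3 doses. Among 28 tRNA synthetases, 13 were lower at an unadjusted p under 0.05 and 7 fell over the 3 doses, with a median of -0.17. GARS had the smallest p, with 184, 213 and 243 CPM in HH, PF382 and TLOm1 at 25 nM, against 233, 277 and 303 CPM at 5 nM (log2 fold change -0.38 ± 0.06, adjusted p = 0.0909). Among 20 genes of MYC and ribosome biogenesis, 11 were lower at an unadjusted p under 0.05 and 5 fell over the doses. MYC itself, the growth-promoting transcription factor, was at 296, 144 and 115 CPM at 25 nM, against 447, 276 and 145 CPM at 5 nM (-0.66 ± 0.12, adjusted p = 0.143), and it fell over the 3 doses. Among 27 glycolysis and hypoxia genes the count was 13, with ALDOC, an aldolase, at -0.48 ± 0.08 (adjusted p = 0.0909), and 9 of 28 fell over the doses. The integrated stress response list had 9 of 25, among them PHGDH, the first enzyme of serine synthesis, at -0.42 ± 0.09 (adjusted p = 0.171). Among the 8 genes with the smallest p-values below 0 were also C6orf223 at -0.74 ± 0.11 (adjusted p = 0.0853) and DCN, a connective tissue proteoglycan, at -3.71 ± 0.44 (adjusted p = 0.0643). DCN was at 0.792 CPM in PF382 at 25 nM, against 4.53 CPM at 5 nM, at 0 in TLOm1 against 3.46 CPM, and had no read in HH.

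Lists of interferon-stimulated, cytotoxic, cytoskeletal and histone genes had medians above 0, with few or no calls. The nucleic acid sensors and the NF-kappaB and TNF receptor family, by contrast, had medians of -0.07 and -0.03 and no call by edgeR, DESeq2 or limma voom, with 2 of 14 sensors higher and 2 of 22 genes of that family lower at an unadjusted p under 0.05. Of 34 interferon-stimulated genes, 30 had a log2 fold change above 0 and 5 were higher at an unadjusted p under 0.05, against 7.16% of all genes tested, with a median of 0.27 and no call by edgeR, DESeq2 or limma voom. MX2, an antiviral GTPase, rose over the 3 doses and was at 125 CPM in PF382 at 25 nM against 55.5 CPM at 5 nM, but at 1.14 CPM in HH against 1.2 CPM. Among 8 tested genes of cytotoxic cells CST7 was called by edgeR and limma voom and not by DESeq2. CTSW and PRF1, the pore protein perforin, were not (adjusted p = 0.121 and 0.292), although both rose over the doses. Of 30 cytoskeleton and adhesion genes, 8 were higher at an unadjusted p under 0.05, among them the actin crosslinker ACTN1 at 1.07 ± 0.16 (adjusted p = 0.0828). The 16 tested histone genes all had a value above 0, 4 were higher at an unadjusted p under 0.05, and none was called by edgeR, DESeq2 or limma voom. LAT, an adaptor of the T-cell receptor, was at 43.8, 285 and 73.7 CPM in HH, PF382 and TLOm1 at 25 nM, against 24.9, 200 and 43.4 CPM at 5 nM (0.65 ± 0.09, adjusted p = 0.0593), and NRARP, a NOTCH target, at 33.9, 10.4 and 0.466 CPM against 7.35, 0.517 and 0.178 CPM (2.52 ± 0.34, adjusted p = 0.0617). The epithelial keratin KRT8 was at 0.646, 27.3 and 50.6 CPM in HH, PF382 and TLOm1 at 25 nM, against 0.0521, 7.92 and 22.1 CPM at 5 nM (adjusted p = 0.0506). The 8 epithelial markers summed to 2.14 to 142 CPM at 25 nM and 0.261 to 87.7 CPM at 5 nM, with CDH1 in TLOm1 as the highest.

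The targets of the drug and the enzymes that activate it gave no call at 25 nM against 5 nM among 21 tested genes, with a median of 0.02. By edgeR 1 of them was higher and none lower at an unadjusted p under 0.05, against 7.16% and 4.96% of all genes tested, and DESeq2 and limma voom called none. DNMT1, the maintenance methyltransferase, was at 413, 567 and 554 CPM in HH, PF382 and TLOm1 at 25 nM, against 361, 635 and 494 CPM at 5 nM (log2 fold change 0.03 ± 0.09, adjusted p = 0.907). DCK, the kinase that activates decitabine, had 0.11 ± 0.07 (adjusted p = 0.566). The slope over the 3 doses differed between lines for SLC29A1, UHRF1 and SAMHD1 (adjusted p = 0.000202, 0.0376 and 0.0361, edgeR's test of the interaction), as for 4.25% of all genes. SLC29A1 was at 103, 152 and 53.7 CPM in HH, PF382 and TLOm1 at 25 nM, against 105, 297 and 56.6 CPM at 5 nM. DNMT3B, a de novo methyltransferase, was at 0.895, 115 and 3.6 CPM at 25 nM, against 0.261, 65.5 and 2.21 CPM at 5 nM (0.78 ± 0.14, adjusted p = 0.132), and it rose over the 3 doses. The 22 tested p53 targets and the 26 and 22 genes of G1/S and G2/M had medians of 0.06, -0.06 and 0.02 and no call by edgeR, with 1 gene of each list higher at an unadjusted p under 0.05. DESeq2 called 1 G2/M gene higher. Of 29 tested zinc finger genes of 19q13.43, 1 was higher and 2 lower at an unadjusted p under 0.05, against 7.16% and 4.96% of all genes tested, none was called by edgeR, DESeq2 or limma voom, and ZNF772 came nearest, with 16.9 CPM in PF382 at 25 nM against 1.84 CPM at 5 nM (adjusted p = 0.0506).

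Genes without a read at one dose bear on the many genes of single lines that the test left out. With all libraries thinned to 13892514 counts, 51 genes in HH, 201 in PF382 and 71 in TLOm1 had at least 10 counts at 25 nM and none at 5 nM. The opposite held for 2 genes in HH, 0 in PF382 and 14 in TLOm1. The 25 nM sets covered 291 genes, of which 262 were of 1 line, 26 of 2 lines and 3 (MAGEA12, MAGEA3 and MAGEA6) of all 3. Testis and germline list members numbered 35 of the 291 (12.0%), against 0.336% of all genes in the files, and 52 lie on X, where 4.36% of the genes with a known chromosome lie. In PF382, SYCP2, a protein of the synaptonemal complex, was at 16.5 CPM at 25 nM, against no read at 5 nM, and MAGEA4 at 12.6 CPM against 0.0574 CPM. In TLOm1, HAND1, a transcription factor of heart and placenta, was at 3.6 CPM at 25 nM, against 0.178 CPM at 5 nM, whereas HH held it at 1135 CPM against 1208 CPM. In HH, ONECUT2, a homeodomain factor, was at 4.18 CPM against 0.0521 CPM. Those read in TLOm1 at 5 nM alone were led by COL1A2, DPT, DCN and MMP2, which had no read at 25 nM and none at 12.5 nM, against 9.16, 4.53, 3.46 and 2.92 CPM at 5 nM. These are the connective tissue genes by which that library stood apart, and their part in the 14 genes was not tested.

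The slope over the 3 doses differed between the lines for 667 of 15677 genes (4.25%, edgeR's quasi-likelihood test of the interaction). The steepest slope was a rise in PF382 for 329 of these genes, in HH for 154 and in TLOm1 for 56, and a fall in PF382 for 87, in HH for 22 and in TLOm1 for 19. Without PF382 69 genes differed, without HH 415 and without TLOm1 1204. PDGFRB, a growth factor receptor of mesenchymal cells, was at 0.517, 3.95 and 19.7 CPM in PF382 at 5, 12.5 and 25 nM, while TLOm1 lay between 86 and 106 CPM and HH under 0.3 CPM at all doses. JUN, a subunit of AP-1, was at 12.6, 23.1 and 57.3 CPM in PF382 over the same doses and between 47.2 and 62.2 CPM in the other lines. At 25 nM the 3 lines thus lay close together for JUN. PPP1R16B, TNIK and MEI1 had the same order in PF382, with 44.1, 91.6 and 166 CPM for PPP1R16B. TDRD9, an RNA helicase of piRNA production, was at 0.115, 5.89 and 26.8 CPM in PF382, at 0, 0 and 0.944 CPM in HH and at 50.9, 56.8 and 60.3 CPM in TLOm1. The TDRD9 slope per doubling of the dose was steepest in HH, at 5.55 against 2.48 in PF382, although HH had no read below 25 nM. The counts by steepest slope thus include lines near the floor. CCNA1, a cyclin of male meiosis, rose mainly in HH, at 0.261, 1.4 and 12.1 CPM.

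**Figure D5:**
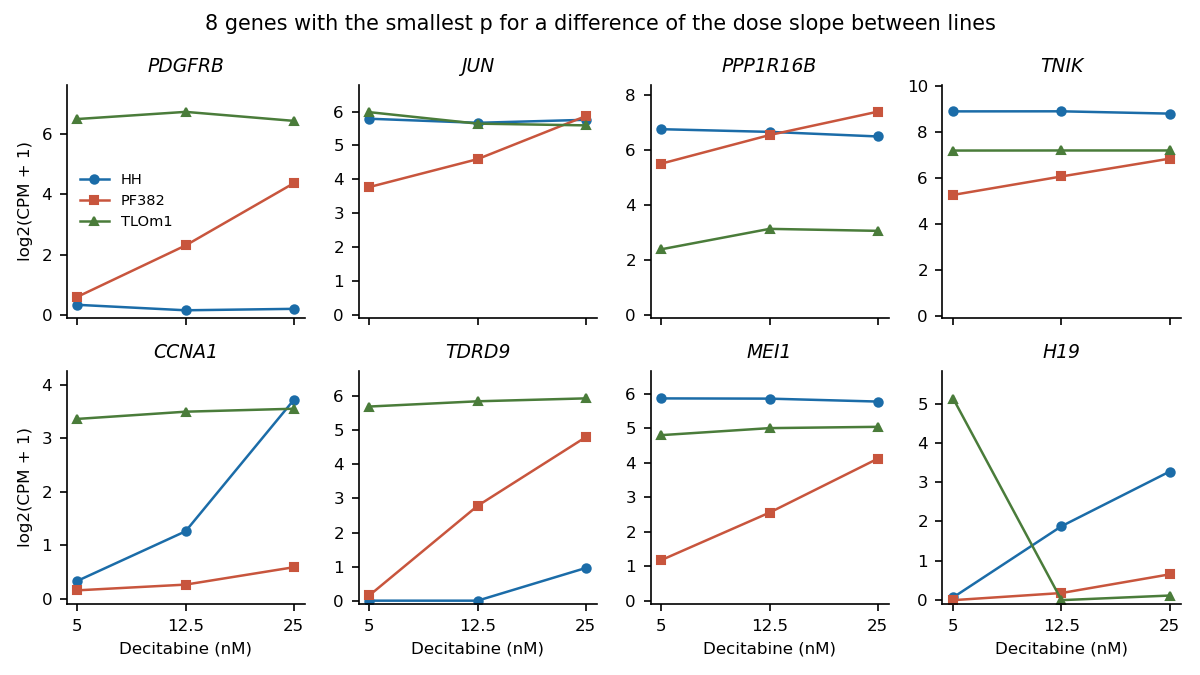
Level of the 8 genes with the smallest p-values for a difference of the slope between lines, in log2(CPM + 1), at 5, 12.5 and 25 nM, with 1 library per point. PF382 moves in PDGFRB, JUN, PPP1R16B, TNIK, MEI1 and TDRD9, HH in CCNA1, and H19 is high in TLOm1 at 5 nM alone.

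H19, an imprinted noncoding RNA of fetal and mesenchymal tissue, had the smallest p of the difference between lines. It was at 0.0521, 2.68 and 8.65 CPM in HH and at 0, 0.134 and 0.576 CPM in PF382 at 5, 12.5 and 25 nM, but at 33.8, 0 and 0.0847 CPM in TLOm1. The TLOm1 value at 5 nM came from the library with the connective tissue genes, and their part in it was not tested. Of 17 tested imprinted genes, 14 had a log2 fold change above 0, against 52% of all genes tested, 3 were higher at an unadjusted p under 0.05, against 7.16%, and none was called by edgeR, DESeq2 or limma voom, with MEST, a maternally imprinted hydrolase, at 1.04 ± 0.19 (adjusted p = 0.126).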

How the data were processed

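The authors deposited whole-number read counts per gene for each library, not normalized, under gene symbols. STAR, limma, DESeq2 and GRCh37.p2 appear in the submitters' processing notes, with neither roles nor versions. For the read counter and annotation, nothing was given in the sources used here, and the labels name both polyA RNA and rRNA depletion. Counts were tested in edgeR 4.0.16 (R 4.3.3) with TMM scaling, filterByExpr (minimum count 10, total 15), terms for cell line and dose, a robust quasi-likelihood fit (2 residual degrees of freedom) and Benjamini-Hochberg adjustment at 0.05. Slopes used log2 dose over 9 libraries, and their difference between lines an interaction (3 residual degrees of freedom). Libraries were paired by cell line, which the design fixes. An exact permutation test over 3 pairs cannot go below 0.25. Alternatives used limma 3.58.1 and DESeq2 1.42.0. Pseudocount 1 CPM was used for log2 levels. Errors are standard errors from the F statistic.

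Genes to name were drawn from the 15 largest called rises at 1 CPM or more on average and the 8 genes with the smallest p among falls. They were also drawn from up to 4 tested genes per list by p, all drug target genes, the 8 genes differing most between lines and up to 4 genes per line without a read at one dose. Not all genes of the lists and drug targets are given. Other called genes were named after their values were seen. Libraries, lists and members were chosen with earlier results of these data known. File symbols were matched to RefSeq for 20013 genes by symbol and 2393 by synonym, out of 25559. The fit was also run on simulated counts for 13755 genes of this comparison. It recovered 81 of 100 genes changed by a log2 fold of 1 and 99 of 100 changed by 2, with 9 false calls. These figures describe the simulated counts only. Whether they hold for genes nearly silent at the lowest dose, or for genes that differed between lines, was not tested. They are therefore not a measure of how reliable the calls are.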

Additional observations from a re-analysis of the deposited data

Results flagged for a closer look

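The dose slope differed between the 3 lines for 667 genes, by a test of the difference itself, and the same test marked 8 named genes. Their adjusted p-values were 1.46e-08 for H19, 3.66e-08 for TDRD9, 1.79e-07 for PDGFRB and for JUN, 2.85e-07 for PPP1R16B and for TNIK, and 3.17e-07 for CCNA1 and for MEI1 (edgeR's quasi-likelihood test). In H19 the difference came with 1 library: TLOm1 was at 0.0847 CPM or less at the higher doses, against 33.8 CPM at 5 nM. With 3 libraries per dose no test for a single library far from the others was made.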

How the results depend on the processing

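Of 48 genes higher and 1 lower, RLE scaling gave 56 and 1, upper quartile scaling 56 and 0, no low filter 120 and 9, a mean of 1 CPM 86 and 4, DESeq2 99 and 52, limma voom 37 and 1, a fit without robust dispersion 45 and 0, the legacy quasi-likelihood fit 6 and 0, the 12.5 nM libraries as a dose level 514 and 138, and thinned counts 45 and 2. Without the replicate block for cell line edgeR called 0 and 0, with 81 genes at an unadjusted p under 0.05. Leaving out a line gave 56 to 77 higher and 1 to 4 lower. Slopes on dose rank called 590 and 239, and leaving out a line 333 to 847 rising and 57 to 328 falling, against 632 and 235. The line difference was called for 626 genes on dose rank and for 69 to 1204 with a line left out, a choice made after seeing the data. Genes without a read at 5 nM or at 25 nM, summed over lines, numbered 323 and 16, with unthinned counts 325 and 26, with at least 5 counts 862 and 83, and with at least 20 counts 124 and 9. Among called genes with a symbol and genes named by rank or by list, none changed direction with a call under the alternatives of the 25 nM against 5 nM test. Genes named only for a difference between lines or for no read at one dose, H19 among them, were not followed. The causes were not tested. Precision was limited by 1 library per line and dose and by genes near 0 at 5 nM.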
